A study of Mus musculus with 2 samples.

Results

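The genes described here are 40 genes of tissue macrophages and of related phagocytes, followed through both libraries of a study of regulatory T cells. They were picked by their GENCODE M21 symbol out of 55536 genes, and all 40 were found in both kinds of gene table. Of the 40, 23 are known mainly from resident macrophages of tissues, 13 are shared by many phagocytes, and 4 are better known from monocytes or neutrophils. The members were picked with their levels in these libraries known. The difference between the libraries is therefore given as a description, with no test.

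The study sequenced polyA+ RNA from primary mouse cells labelled as inflammation-experienced regulatory T-cells. The mice were male and 7 weeks old, and the cells are said to originate from the activated regulatory T cell. The labels give 1 biological replicate and 2 technical replicates of it, called library 2 and library 1 here. Both libraries carry the same sex, age and cell label, and no source used here gives the strain, the means of inflammation, the sort or the number of mice. With 1 group there is no comparison of conditions, and the libraries do not measure spread between animals.

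Resident macrophages live in a tissue for long periods and clear dying cells, debris and aged red cells there. In the spleen and liver they take up red cells, open the heme ring, store or export the iron, and secrete complement proteins that tag material for uptake. Monocytes and neutrophils enter tissues from the blood, and carry large amounts of lysozyme and of the calcium-binding proteins S100A8 and S100A9. Regulatory T cells restrain immune responses and are not known for most of these genes.

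The expected counts of GENCODE genes summed to 22036331 in library 2 and 26593267 in library 1. A second, smaller gene table held 6972139 whole-number counts for library 2 and 7911181 for library 1. A gene with 0 counts may hold up to 3 counts, which on a scale of counts per common library total (CPM) is 0.136 in library 2 and 0.113 in library 1. The labelled cell type was seen in both libraries, with Foxp3, the factor that defines regulatory T cells, at 87.4 TPM in library 2 and 87.3 TPM in library 1. TPM is the level per transcript length within a library. Folds below are ratios of CPM, with 95% exact binomial intervals of library 2 over library 1. A fold given as at least a value sets 0 counts to 3 and leaves out the counting error of the other library. Intervals and floors cover counting error only. They treat each read as a separate molecule, and no source used here says whether PCR copies were removed. In bulk RNA, fewer cells of a type and less RNA per cell cannot be told apart.

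Most macrophage genes were higher in library 2. Summed over the 40 members, the level was 336 TPM in library 2 and 122 TPM in library 1. At 1 TPM or more stood 31 members in library 2 and 17 in library 1, of which 15 were the same genes. No counts were found for 4 members in library 2 and for 11 in library 1, and 3 members had none in either. Of the 35 members with at least 10 counts summed over both libraries, 27 were at least 2-fold higher in library 2, 3 were at least 2-fold lower, and 5 were within 2-fold. Of all 24151 genes with that many counts, the share at least 2-fold higher in library 2 was 32.8%, and the share at least 2-fold lower was 9.41%. The median log2 ratio of library 2 over library 1, with 0.5 counts added to each, was 2.30 for the members (2.32 with genes at 0 counts set to their bound) and 0.23 for all these genes. Among genes with at least 100 counts, library 2 was at least 2-fold higher for 19 of 25 members and lower for 2, while 9.03% of all 12603 genes were higher and 5.03% lower. For 0 counts and for 1 TPM no share of all genes is given here. The members were chosen on this contrast, so nothing is read from these counts and shares.

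**Figure D1:**
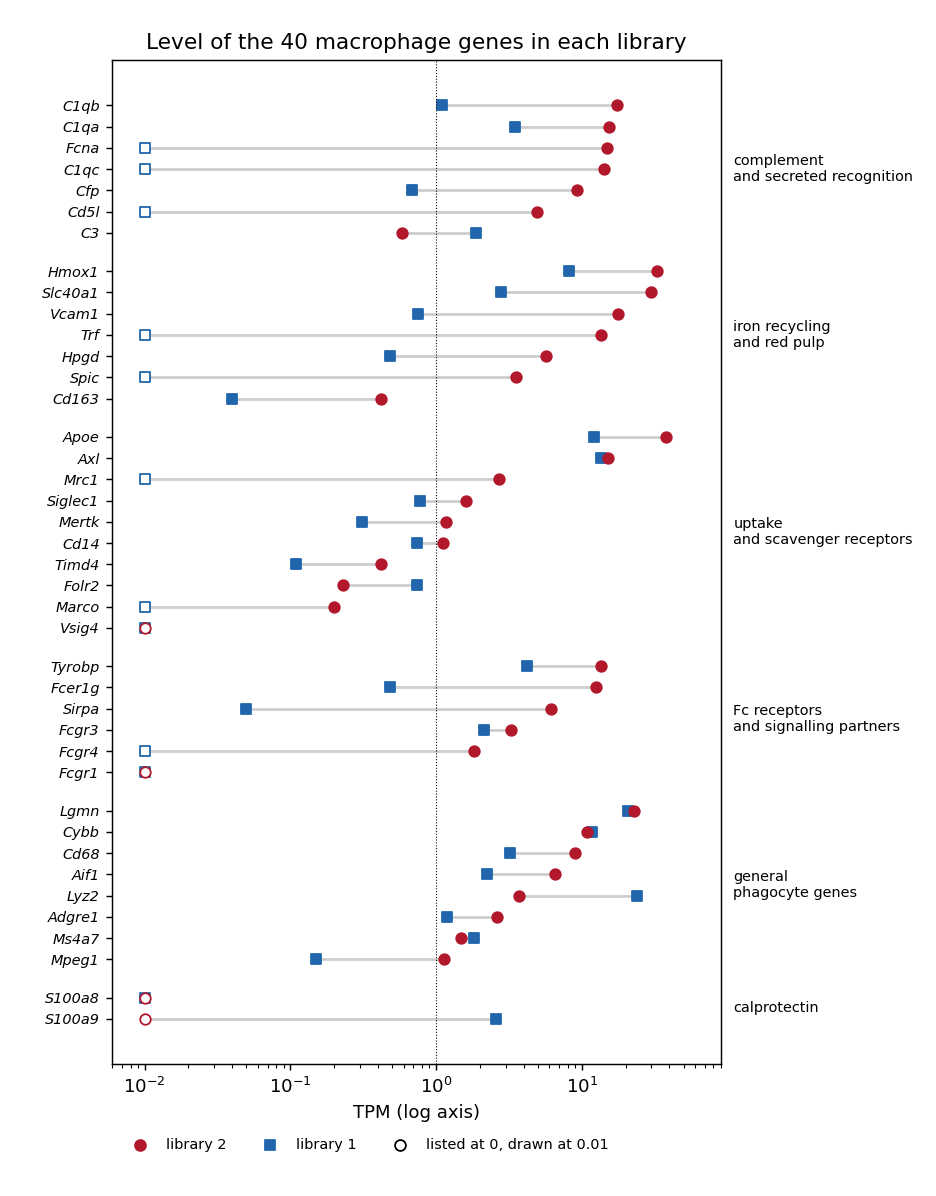
Level of each of the 40 members in TPM on a log axis, in library 2 (red circles) and library 1 (blue squares), 1 value per library, ordered by role. Open symbols at the left edge are members listed at 0, and the dotted line marks 1 TPM. The circles of the complement and iron genes lie right of the squares for every gene but C3, while Axl, Lgmn and Cybb nearly coincide and Lyz2 and S100a9 lie the other way.

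The order of the members by level also differed. In library 2 the highest were Apoe at 37.6 TPM, Hmox1 at 32.7, Slc40a1 at 29.7, Lgmn at 22.8 and Vcam1 at 17.75. In library 1 they were Lyz2 at 23.8 TPM, Lgmn at 20.65, Axl at 13.65, Apoe at 12.2 and Cybb at 11.7. Even the highest were mid-range transcripts, since Apoe stood at the 74.1 percentile of the genes at 1 TPM or more in library 2 and Lyz2 at the 57.8 percentile in library 1.

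The promoters of 3 members are shown as examples. C1qb and Cd5l were among those higher in library 2, while Axl had nearly the same level in both. The purine-rich word GAGGAA is the core recognised by PU.1 and Spi-C, which are transcription factors of macrophages. It was searched on both strands in the 250 bases before the RefSeq start of each gene, and each of the 3 windows held 1 match. The sequences are RefSeq's on GRCm38.p6, written 5′ to 3′ on the gene's strand, with the match or its reverse complement in capitals. The C1qb window is chr4:136886201-136886450 on the minus strand, the Cd5l window is chr3:87357631-87357880 on the plus strand, and the Axl window is chr7:25788734-25788983 on the minus strand.
C1qb: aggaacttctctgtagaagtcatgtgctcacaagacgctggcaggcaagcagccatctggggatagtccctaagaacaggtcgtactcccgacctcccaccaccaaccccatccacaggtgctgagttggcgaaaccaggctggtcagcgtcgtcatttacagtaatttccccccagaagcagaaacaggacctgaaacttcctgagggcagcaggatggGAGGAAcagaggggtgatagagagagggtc
Cd5l: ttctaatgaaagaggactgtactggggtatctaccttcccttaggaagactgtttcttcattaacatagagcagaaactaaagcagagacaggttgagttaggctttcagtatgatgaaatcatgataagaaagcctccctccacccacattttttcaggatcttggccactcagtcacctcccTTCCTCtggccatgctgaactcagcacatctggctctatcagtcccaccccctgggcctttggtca
Axl: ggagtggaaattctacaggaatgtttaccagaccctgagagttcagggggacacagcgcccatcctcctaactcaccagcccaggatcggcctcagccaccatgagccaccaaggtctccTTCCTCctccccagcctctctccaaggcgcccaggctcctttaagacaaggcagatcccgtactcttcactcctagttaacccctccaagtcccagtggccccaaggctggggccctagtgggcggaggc
The first base of the match lay 30 bases before the start of C1qb, 66 bases before that of Cd5l and 130 bases before that of Axl. Of the 30 members with such a sequence, 16 held GAGGAA (53.3%), against 6986 of all 27025 genes in the table (25.9%). By class, 10 of 16 resident members held it (62.5%), 5 of 10 shared members (50.0%) and 1 of 4 monocyte or neutrophil members. A word bound by AP-1, TGANTCA, where N is any base, cannot overlap the first word and was held by 4 of the 30 members (13.3%) and by 7.82% of all genes. The 4 were Cd68, Cybb, Folr2 and Ms4a7. A match is a run of letters and not a bound site. Among members with a match, Axl had nearly the same level in both libraries, and Vsig4, Fcgr1 and S100a8 had 0 expected counts in both. The windows of Spic, Lyz2 and Cybb held 0 matches of GAGGAA. These single genes cannot bear on a link of the word to the library differences, which was not tested.

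Complement and secreted recognition proteins stood out in library 2. C1q is the protein that starts the classical complement pathway, and its A, B and C chains are encoded side by side on the minus strand of chromosome 4 (mm10), C1qb at 136880129 to 136886187, C1qc at 136889804 to 136893065 and C1qa at 136895917 to 136898803. C1qb had 246 counts (17.45 TPM) in library 2 and 19 counts (1.10 TPM) in library 1, 15.6-fold higher in library 2 (interval 9.79 to 26.4). C1qa had 207 counts (15.4 TPM) in library 2 and 57 (3.47 TPM) in library 1, 4.38-fold higher (3.26 to 5.98). C1qc had 223 counts (14.2 TPM) in library 2 and 0 in library 1, at least 89.7-fold higher. The C1q protein needs all 3 chains, and in library 2 the transcripts were near equal, with C1qa at 0.883 and C1qc at 0.816 of the TPM of C1qb. In library 1 C1qa stood at 3.16 times C1qb and C1qc was listed at 0. The smaller table held 158 counts of C1qc in library 2 and 0 in library 1, beside 144 of C1qa in library 2 and 45 in library 1 and 203 of C1qb in library 2 and 18 in library 1.

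Other secreted proteins of this kind followed the C1q genes. Fcna encodes ficolin A, a lectin that starts the lectin pathway of complement (chromosome 2, 25624666 to 25628030, minus strand). It had 257 counts (14.8 TPM) in library 2 and 0 in library 1, at least 103-fold higher. Cd5l, a soluble scavenger protein of macrophages (chromosome 3, 87357881 to 87371073, plus strand), had 133 counts (4.93 TPM) in library 2 and 0 counts in library 1, at least 53.5-fold higher in library 2. Cfp encodes properdin, which stabilises the alternative pathway convertase and is stored by neutrophils as well. It had 181 counts (9.27 TPM) in library 2 and 18 (0.68 TPM) in library 1, 12.1-fold higher (7.46 to 20.9). The exception was C3, the central complement component, with 29 counts (0.58 TPM) in library 2 and 139 (1.88 TPM) in library 1, 3.97-fold lower in library 2 (ratio 0.252, interval 0.163 to 0.378). The 7 genes summed to 76.7 TPM in library 2 and 7.13 TPM in library 1.

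All 7 genes of iron recycling and of red pulp macrophages were at least 2-fold higher in library 2, where they summed to 103.4 TPM, against 12.3 TPM in library 1. Spic encodes Spi-C, the transcription factor that red pulp macrophages of the spleen need. It had 76 counts (3.52 TPM) in library 2 and 0 in library 1, at least 30.6-fold higher. Slc40a1 encodes ferroportin, the exporter of iron (chromosome 1, 45908068 to 45926523, minus strand). It had 1187 counts (29.7 TPM) in library 2 and 153 (2.80 TPM) in library 1, 9.36-fold higher (7.91 to 11.2). Hmox1, heme oxygenase 1, which opens the heme ring (chromosome 8, 75093621 to 75100589, plus strand), had 662 counts (32.7 TPM) in library 2 and 207 counts (8.21 TPM) in library 1, 3.86-fold higher in library 2 (3.30 to 4.53). Exporter and heme oxygenase thus stood at near equal level in library 2, at a ratio of 0.909, and at 0.341 in library 1.

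Trf encodes transferrin, the iron carrier of plasma, made chiefly by the liver (chromosome 9, 103204001 to 103230444, minus strand). It had 388 counts (13.65 TPM) in library 2 and 0 in library 1, at least 156-fold higher, but 8 counts in library 2 and 0 in library 1 in the smaller table. Its estimate in library 2 carried a posterior SD of 34.6 counts, and it overlaps the gene Gm20425 on the same strand, which had 127 counts in library 2 and 1.43 in library 1. The size of the Trf difference is therefore uncertain. Vcam1, an adhesion molecule that marks red pulp and other resident macrophages as well as activated endothelium (chromosome 3, 116109949 to 116129688, minus strand), had 837 counts (17.75 TPM) in library 2 and 50 counts (0.75 TPM) in library 1, 20.2-fold higher in library 2 (15.2 to 27.4). Hpgd, which breaks down prostaglandins, had 127 counts (5.73 TPM) in library 2 and 13 counts (0.48 TPM) in library 1, 11.8-fold higher (6.65 to 22.8). Cd163, the receptor for haemoglobin bound to haptoglobin, was low, with 25 counts (0.42 TPM) in library 2 and 2 counts (0.04 TPM) in library 1, a ratio of 15.1 (3.76 to 131).

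The 10 uptake and scavenger receptors were mixed. Together they stood at 60.2 TPM in library 2 and 28.5 TPM in library 1, and library 2 was at least 2-fold higher for 6 of the 7 with 10 counts or more. Mrc1, the mannose receptor (chromosome 2, 14229392 to 14332057, plus strand), had 194 counts (2.69 TPM) in library 2 and 0 in library 1, at least 78.0-fold higher. Siglec1, a sialic acid receptor of marginal and lymph node macrophages, had 124 counts in library 2 and 30 in library 1, 4.99-fold higher (3.33 to 7.70). Apoe, the lipid carrier that macrophages secrete (chromosome 7, 19696109 to 19699188, minus strand), had 553 counts (37.6 TPM) in library 2 and 211 counts (12.2 TPM) in library 1, 3.16-fold higher in library 2 (2.69 to 3.72).

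Axl and Mertk encode related receptor kinases that bind dying cells through bridging proteins, and they behaved differently. Axl (chromosome 7, 25757273 to 25788705, minus strand) had 788 counts (15.1 TPM) in library 2 and 955 counts (13.65 TPM) in library 1, a log2 ratio of -0.01 (interval of the ratio 0.905 to 1.10). Mertk had 61 counts (1.17 TPM) in library 2 and 14 counts (0.31 TPM) in library 1, 5.26-fold higher in library 2 (2.91 to 10.2). Cd14, the coreceptor for bacterial lipopolysaccharide, had 24 counts in library 2 and 13 in library 1, 2.23-fold higher (1.09 to 4.76). Timd4, a phosphatidylserine receptor of long-lived resident macrophages, had 12 counts in library 2 and 4 in library 1, 3.62-fold higher (1.10 to 15.4), but 9 counts in library 2 and 12 in library 1 in the smaller table, so the tables gave opposite directions for it. Vsig4, the complement receptor of liver macrophages, had 0 counts in both libraries. Marco, a scavenger receptor of marginal zone and alveolar macrophages, had 5 counts in library 2 and 0 in library 1, and Folr2, a folate receptor, 1 in library 2 and 4 in library 1. Vsig4 and Marco were thus at or near 0 in both libraries.

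The 6 Fc receptors and signalling partners summed to 37.4 TPM in library 2 and 6.87 TPM in library 1. Fcer1g, the gamma chain through which activating Fc receptors signal, had 107 counts (12.6 TPM) in library 2 and 5 counts (0.48 TPM) in library 1, 25.8-fold higher (10.7 to 81.2). The smaller table gave a lesser difference for it, with 71 counts in library 2 and 40 in library 1, 2.01-fold. Tyrobp, the adaptor also called DAP12, had 96 counts (13.55 TPM) in library 2 and 36 counts (4.21 TPM) in library 1, 3.22-fold higher (2.17 to 4.86). The gamma chain stood at 0.931 of the TPM of Tyrobp in library 2 and at 0.114 in library 1, where it rests on 5 counts. In the smaller table Fcer1g had more counts than Tyrobp in both libraries (57 of Tyrobp in library 2 and 25 in library 1), so the low ratio of library 1 was not seen there.

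Sirpa, the receptor that binds CD47 and restrains uptake (chromosome 2, 129592835 to 129632228, plus strand), had 286 counts (6.17 TPM) in library 2 and 3 counts (0.05 TPM) in library 1, a ratio of 115 (39.0 to 561). Fcgr4, an activating receptor for IgG, had 30 counts (1.83 TPM) in library 2 and 0 counts in library 1, at least 12.1-fold higher in library 2. Fcgr3, the low-affinity activating receptor, had 57.5 counts (3.27 TPM) in library 2 and 44.2 counts (2.13 TPM) in library 1, 1.57-fold higher (1.06 to 2.41). Fcgr1, the high-affinity receptor that is a common macrophage marker, had 0 counts in both libraries. The 3 Fcgr genes therefore ranged from no counts in either library to a difference bounded only from below.

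General phagocyte genes had a lower median log2 ratio than the groups above, 0.66 over 8 genes. Of the 8 genes 4 were at least 2-fold higher in library 2, 1 was lower and 3 were within 2-fold. The lower one was Lyz2, which is described below with the monocyte or neutrophil members. The 8 genes summed to 58.3 TPM in library 2 and 64.7 TPM in library 1. The lower sum in library 2 rests on Lyz2, at 3.72 TPM in library 2 and 23.8 TPM in library 1. In the smaller table only 1 was higher and 1 lower, since Adgre1, Cd68 and Aif1 fell under 2-fold there. Mpeg1, a pore-forming protein of the phagosome, had 66 counts (1.14 TPM) in library 2 and 11 (0.15 TPM) in library 1, 7.24-fold higher (3.80 to 15.2), and 38 counts in library 2 and 1 in library 1 in the smaller table. Aif1, an actin-bundling protein also called Iba1, had 47 counts in library 2 and 20 in library 1, 2.84-fold higher (1.65 to 5.05). Cd68, a glycoprotein of late endosomes, had 122 counts (8.99 TPM) in library 2 and 61 counts (3.22 TPM) in library 1, 2.41-fold higher (1.76 to 3.34). Adgre1, which encodes the macrophage antigen F4/80, had 108 counts (2.64 TPM) in library 2 and 57 counts (1.19 TPM) in library 1, 2.29-fold higher (1.64 to 3.21). In both tables Aif1, Cd68 and Adgre1 had counts in both libraries and differed by less than C1qc, Fcna or Spic.

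Lgmn, a lysosomal protease, and Cybb, the large chain of the phagocyte NADPH oxidase, were close to level between the libraries. Lgmn had 553 counts (22.8 TPM) in library 2 and 606 counts (20.65 TPM) in library 1, a ratio of 1.10 (0.980 to 1.24), with a log2 ratio of -0.01 under DESeq2 size factors. Cybb had 565 counts (10.9 TPM) in library 2 and 767 counts (11.7 TPM) in library 1, 1.13-fold lower in library 2 (interval of the ratio 0.796 to 0.992). Ms4a7, a membrane protein of macrophages, had 17 counts in library 2 and 31 in library 1, 1.51-fold lower (0.344 to 1.23). With Axl, the genes Lgmn and Cybb made up 14.5% of the summed member TPM in library 2 and 37.7% in library 1.

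Of the 4 monocyte or neutrophil members, Lyz2 and S100a9 ran the other way, while Cfp was higher in library 2, as given above. Lyz2, lysozyme M (chromosome 10, 117277331 to 117282321, minus strand), had 64 counts (3.72 TPM) in library 2 and 500 counts (23.8 TPM) in library 1, 6.47-fold lower in library 2 (interval of the ratio 0.117 to 0.201). S100a9, a subunit of calprotectin, had 0 counts in library 2 and 20 counts (2.60 TPM) in library 1, at least 5.52-fold lower. Its partner S100a8 had 0 counts in both libraries, and 1 count in each in the smaller table. The smaller table gave Lyz2 22 counts in library 2 and 98 in library 1 and S100a9 1 in library 2 and 18 in library 1.

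The values of the 3 classes are set side by side here. Resident macrophage members had a median log2 ratio of 3.37 over 20 genes, with 18 of them at least 2-fold higher in library 2 and 0 lower. With genes at 0 counts set to their bound, the median was 3.39. Members shared by phagocytes had a median of 1.37 over 12 genes, of which 8 were at least 2-fold higher and 1, C3, lower. Of the 3 monocyte or neutrophil members with enough counts, Cfp was higher and Lyz2 and S100a9 were lower, with a median of -2.68, and -2.47 at the bound. Resident members supplied 69.5% of the summed member TPM in library 2 and 39.0% in library 1, and monocyte or neutrophil members supplied 3.87% in library 2 and 22.2% in library 1. Lyz2 alone made up 1.11% in library 2 and 19.5% in library 1. In the smaller table the monocyte or neutrophil members summed to 188 counts (27.0 CPM) in library 2 and 138 counts (17.4 CPM) in library 1, so the class as a whole was higher in library 2 there. With 3 genes counted in the last class, its median is the value of Lyz2. By role Lyz2 stands among the general phagocyte genes, so its lower level is not read as a sign of monocytes or neutrophils.

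**Figure D2:**
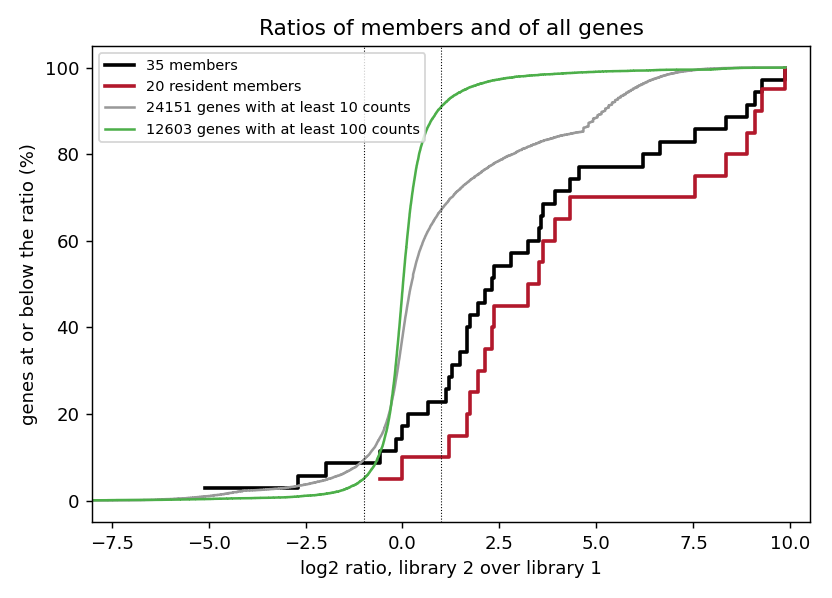
Percent of genes at or below each log2 ratio of library 2 over library 1, for 35 members (black), 20 resident members (red), 24151 genes with at least 10 counts (grey) and 12603 genes with at least 100 counts (green), dotted lines marking 2-fold. The resident members lie right of both curves of all genes, with medians of 3.37, 0.23 and 0.01, and ratios of genes at 0 in 1 library depend on the 0.5 counts added.

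Both count tables gave the same picture for most members. The smaller table came from another alignment and annotation of the same libraries, so it checks the counting and not the RNA. Of 34 members with at least 10 counts in each table, 33 had the same sign in both, 22 were at least 2-fold higher in library 2 in both, and 3 were lower in both. In the smaller one, library 2 was at least 2-fold higher for 19.3% of all 14432 genes and lower for 7.62%. The median log2 ratio there was 3.33 for resident members and 0.06 for all genes. The 8 members with 0 counts in both tables of library 1 and counts in both of library 2 were C1qc, Fcna, Cd5l, Spic, Trf, Mrc1, Fcgr4 and Marco. Marco rests on 5 expected counts in library 2. No share of all genes is given beside this number, so nothing is read from it. The smaller table held 0.607 of the members' expected counts in library 2 and 0.574 in library 1. For the 5 T cell genes it held 0.111 in library 2 and 0.0928 in library 1, so the tables treat abundant genes differently.

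**Figure D3:**
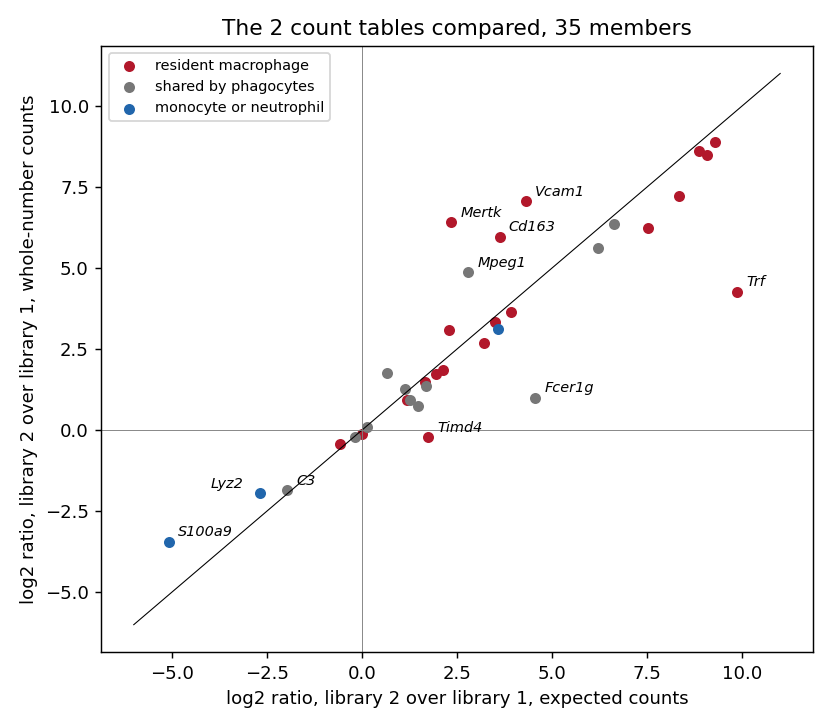
Log2 ratio of library 2 over library 1 in the expected counts (horizontal) and in the whole-number counts of the smaller table (vertical) for the 35 members with at least 10 expected counts, coloured by class, with the line of equal ratios. Trf and Fcer1g lie well below the line, Vcam1, Mertk, Cd163 and Mpeg1 above it, Timd4 is on opposite sides of 0 in the tables, and Lyz2, C3 and S100a9 are below 0 in both.

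The transcript table showed that some counts in library 1 did not fall on coding transcripts. In library 1, 4 members had counts but none on a protein-coding transcript, and in library 2 no member was like this. Vcam1 had all of its 50 counts in library 1 on a transcript with a retained intron (Vcam1-204), while in library 2 the coding transcript Vcam1-201 held 719 counts and 87.0% of the gene's counts were coding. Counting coding transcripts only, Vcam1 was at least 293-fold higher in library 2. Mertk had all 14 counts in library 1 on a processed transcript (Mertk-202), and 50.0 of its 61 counts in library 2 on the coding Mertk-201, at least 20.1-fold higher. Fcgr3 had 57.5 counts in library 2, all on the coding Fcgr3-201, and 44.2 in library 1, all on the retained-intron Fcgr3-203, so the coding difference was at least 23.2-fold. The 2 counts of Cd163 in library 1 were on a retained intron too. Counts of coding transcripts were 0 for 4 members in library 2 and for 15 in library 1. No share of all genes is given beside these numbers, and the 4 members had at most 50 counts in library 1. Nothing is therefore read from them as a trait of the members.

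In library 2 as well, not every count was coding. Of the 76 Spic counts in library 2, 37.1 (48.9%) were on coding transcripts and 35.9 on a retained intron. Aif1 had 10.6 coding counts in library 2 and 9.72 in library 1, only 1.31-fold higher, against 2.84-fold for the whole gene. The dominant coding form differed for Apoe, where Apoe-209 made up 59.85% of the gene's transcripts in library 2 and 14.4% in library 1. Siglec1 had 99.5 counts of the long form Siglec1-201 in library 2 and 0 in library 1, whose counts fell mainly on Siglec1-202 (4.43 in library 2 and 20.4 in library 1). Splitting reads among transcripts of low counts is uncertain. No source used here gives the use of strand in counting. Reads of Fcna, Vcam1, Mertk and Folr2 therefore cannot be told apart from those of the antisense genes that overlap them, nor those of Hpgd from Gm45540 on the same strand.

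**Figure D4:**
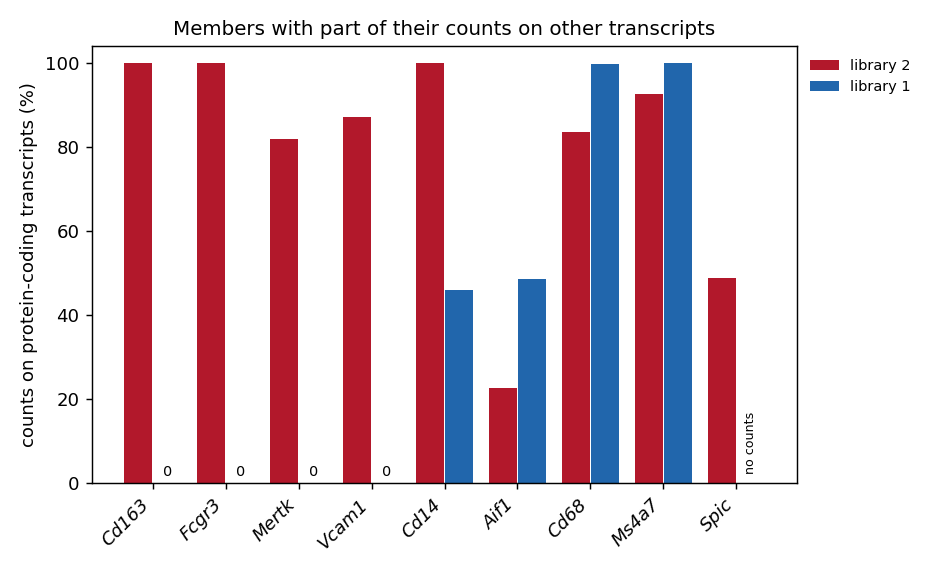
Percent of a member's counts on protein-coding transcripts in library 2 (red) and library 1 (blue), for members under 95% in either library, bars starting at 0. Cd163, Fcgr3, Mertk and Vcam1 stand at 0 in library 1, and Spic, with no counts there, has a bar in library 2 only.

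Lists of other genes give the surroundings of these values, and higher or lower again means at least 2-fold. They too were written with earlier results of these data known. The 13 macrophage transcription factors were mixed. The median log2 ratio was 0.09 over 12 genes, with 4 at least 2-fold higher in library 2, 1 lower and 7 within 2-fold. In bulk RNA the cells behind these counts cannot be told apart, so the median is not read as a value of macrophages. Maf, which macrophages and T cells share, had 2119 counts in library 2 and 2474 in library 1, and Cebpb had 827 in library 2 and 906 in library 1. Gata6, the factor of peritoneal macrophages, had 16 counts in library 2 and 3 in library 1, and Cebpa, a myeloid factor, had 11 in library 2 and 69 in library 1. Spi1, which encodes PU.1 and was picked after its values were seen, had 84 counts in library 2 and 32 in library 1, 3.17-fold higher in library 2. Mitf and Pparg, also picked after their values were seen, were higher too. Mitf had 81 counts in library 2 and 20 in library 1, and Pparg had 106 in library 2 and 57 in library 1.

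Genes of iron and heme handling outside the members differed in both directions. Their median log2 ratio was 0.01 over 13 genes, from -2.83 to 8.45, with 2 higher and 4 lower. The 4 lower genes, named after their values were seen, included Tfrc, the transferrin receptor, with 655 counts in library 2 and 2730 in library 1. Blvrb, a biliverdin reductase, had 168 in library 2 and 892 in library 1, and Steap3, a ferric reductase, had 19 in library 2 and 167 in library 1. Hpx, the heme carrier hemopexin, had 2 in library 2 and 11 in library 1. The ferritin chains Fth1 and Ftl1, which most cells use to store iron, each had a log2 ratio of 0.01. Slc11a1, the iron and manganese transporter of the phagosome, had 144 counts in library 2 and 0 in library 1, at least 57.9-fold higher, and Lrp1, a receptor for heme bound to hemopexin, had 107 in library 2 and 11 in library 1. Lysosomal and lipid genes had a median of 0.26 over 13 genes, with 4 higher and 0 lower. Ctsd had 12775 counts in library 2 and 11240 in library 1, and Ctsb had 8760 in library 2 and 10763 in library 1, so these proteases were abundant in both. Msr1, a scavenger receptor, had 33 counts in library 2 and 6 in library 1, with the opposite order in the smaller table (1 in library 2 and 8 in library 1), and Pltp, a phospholipid transfer protein, had 185 in library 2 and 54.6 in library 1.

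For the recognition of dying cells the median was 0.24 over 10 genes, with 4 higher and 0 lower. Elmo1 (7840 counts in library 2 and 9099 in library 1) and Itgav (1829 in library 2 and 2414 in library 1) had similar shares of both libraries, whereas Stab2, a phosphatidylserine receptor of sinusoidal endothelium and macrophages, had 61 counts in library 2 and 1 in library 1. Gas6, the ligand that bridges dying cells to Axl and Mertk, had 29 counts in library 2 and 5 in library 1. Other complement genes had a median of -0.29 over 9 genes, with 3 higher and 3 lower. In the smaller table the median was 1.30 over 8 genes, with 5 higher and 1 lower, so the balance of this list depends on the table. C4b, a component of the classical pathway, had 201 counts in library 2 and 0 in library 1, at least 80.8-fold higher. C1s1, the protease that acts with C1q, had 33.65 counts in library 2 and 0 in library 1, while the regulator Cr1l had 2622 in library 2 and 4054 in library 1.

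**Figure D5:**
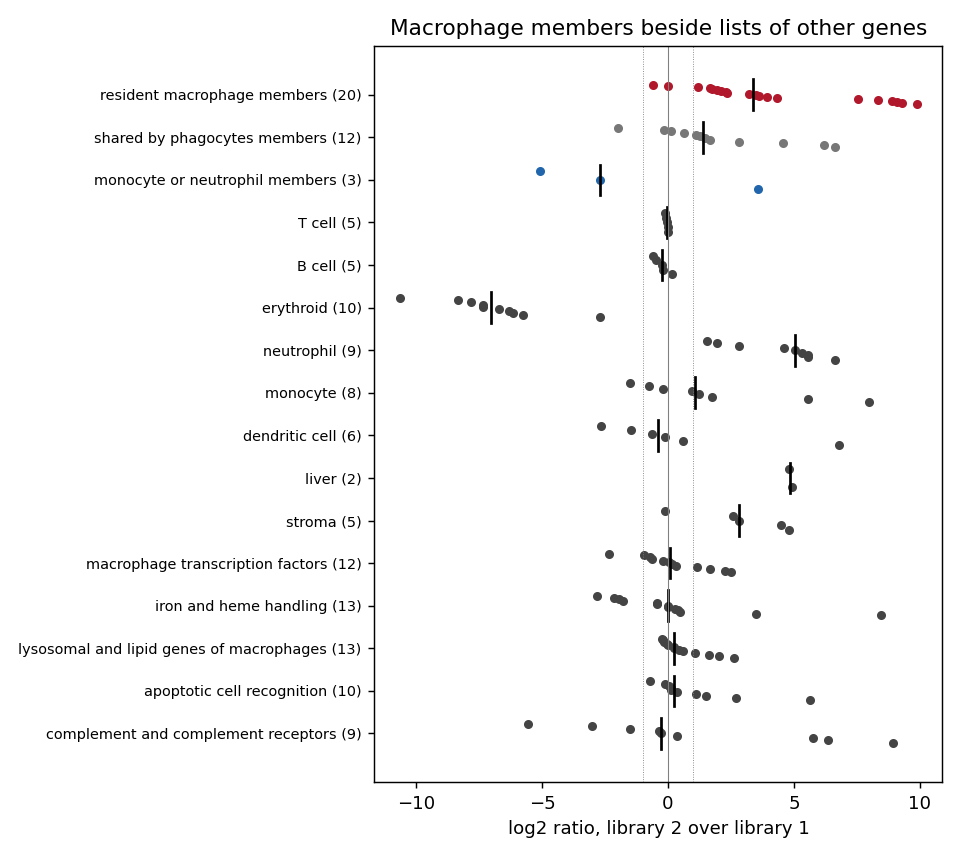
Log2 ratio of library 2 over library 1 for each gene with at least 10 counts (points), with the median of each set (black bars), for the members by class and for 13 lists of other genes, the number of genes in brackets and dotted lines at 2-fold. Resident members and the neutrophil list lie to the right, the erythroid list to the left, and the T cell and B cell lists near 0, and points of genes at 0 counts in 1 library depend on the 0.5 counts added.

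Markers of other cells moved between the libraries as well, and their part in the members' differences was not tested. T cell genes had a median log2 ratio of -0.02 over 5 genes, at a summed 4025 TPM in library 2 and 4074 TPM in library 1. Lck had 27345 counts in library 2 and 33273 in library 1, and Cd3e had 20310 in library 2 and 26840 in library 1. The 5 B cell genes had a median of -0.22 (111.8 TPM in library 2 and 154.4 TPM in library 1), with Cd79a at 775 counts in library 2 and 1315 in library 1 and Cd79b at 675 in library 2 and 1243 in library 1. All 10 erythroid genes were at least 2-fold lower in library 2. Their median log2 ratio was -7.01 (-6.50 with genes at 0 counts set to their bound) and -3.55 in the smaller table, at 95.5 TPM in library 2 and 8544 TPM in library 1. The haemoglobin chains Hbb-bs (325 counts in library 2 and 28282 in library 1) and Hba-a2 (201 in library 2 and 25079 in library 1) made up most of this, while Aqp1 had 0 counts in library 2 and 956 in library 1. The 7 iron recycling members and the genes of red cells thus differed in opposite directions.

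The neutrophil list did not follow Lyz2 and S100a9. Of its 14 genes, 9 had at least 10 counts and all 9 were at least 2-fold higher in library 2. Of all 24151 genes with that many counts, 32.8% were. Only Mmp9 of the 9 had at least 100 summed counts, and among all genes those of few counts were more often higher in library 2. The 14 genes summed to 15.3 TPM in library 2 and 1.12 TPM in library 1. With 0 counts stood 2 of the 14 in library 2 and 10 in library 1. Mmp9 had 94 counts in library 2 and 38 in library 1. Mmp8 had 41 in library 2 and 0 in library 1 and Fpr1 had 19 in library 2 and 0 in library 1, while the defining genes Ly6g and Elane had 0 in both libraries. Of 11 monocyte genes, 8 had enough counts, with 4 higher in library 2, 1 lower and a median of 1.09, at 291.5 TPM in library 2 and 168.0 TPM in library 1. Csf1r, the receptor for the growth factor of monocytes and macrophages, had 492 counts in library 2 and 12.03 in library 1, 49.3-fold higher, and Treml4 had 105 in library 2 and 0 in library 1. Ccr2, which T cells carry too, had 5559 counts in library 2 and 3511 in library 1, and Nr4a1, induced in many activated cells, had 911 in library 2 and 1872 in library 1. Itgam, the 1 lower monocyte gene, had 6 counts in library 2 and 22 in library 1, and 3 more were within 2-fold. Lyz2 and S100a9 were thus lower in library 2 and the 9 neutrophil genes higher, while the monocyte genes were mixed. No rule for monocyte or neutrophil genes in general is drawn from these values.

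Dendritic cell genes had a median of -0.39 over 6 genes, 1 higher and 2 lower, and of -2.27 over 5 genes in the smaller table, 1 higher and 3 lower. Xcr1 had 134 counts in library 2 and 176 in library 1, but 4 in library 2 and 59 in library 1 in the smaller table. Zbtb46 had 102 in library 2 and 194 in library 1, and 10 in library 2 and 57 in library 1 in the smaller table. Batf3 had 1 in library 2 and 11 in library 1, while Cd209a, which some macrophages also carry, had 45 in library 2 and 0 in library 1. Of the 5 stromal and endothelial genes 4 were higher in library 2, with Col1a1 at 67 counts in library 2 and 13 in library 1. Col3a1 was at 11 in library 2 and 0 in library 1 and Pdgfrb was at 65 in library 2 and 3 in library 1, while the endothelial and leukocyte gene Pecam1 had 3188 in library 2 and 4208 in library 1. Of 4 liver genes, Apoa1 (12 counts in library 2 and 0 in library 1) and Alb (11 in library 2 and 0 in library 1) were the 2 with at least 10 counts. All 4 liver genes had 0 expected counts in library 1, and 1 had 0 in library 2. The higher stromal genes and the liver genes each had under 100 summed counts. Among all genes of so few counts a larger share was higher in library 2, so nothing is read from these numbers.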

How the data were processed

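Polyadenylated RNA of 2 technical libraries of 1 biosample was measured. Expected counts and TPM in the large gene and transcript tables were deposited by the authors, from transcriptome alignments to mm10 with GENCODE M21, per the deposited description. The authors also deposited FPKM, used here only as an alternative for detection, and each transcript's percent of its gene, per the file headers. In the smaller table the authors deposited whole-number counts made on mm10 with the GENCODE M4 annotation. Aligner, quantifier, strand setting and duplicate removal: not given in the sources used here.

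Expected counts were rounded to whole numbers for intervals. The 26345 entries that name no gene were left out; they held 0.235% of counts in library 2 and 0.201% in library 1. All 40 members were matched by symbol through GENCODE M21 identifiers, and 22195 of 22457 entries of the smaller table matched. Ratios are library 2 over library 1 of CPM (counts scaled to a common library total), with 0.5 counts added for log2 ratios, over genes with at least 10 counts summed. A fold against 0 counts uses 3 counts in that library and is a lower bound. Depth was 22036331 counts in library 2 and 26593267 in library 1. With 1 group no test between conditions was made. The median of all genes moved by -0.05 with TMM scaling and by -0.14 with DESeq2 size factors.

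The members and lists were chosen with earlier results of these data known. The text names all 40 members, and from each list the 2 genes with the highest summed count and the 2 with the largest absolute log2 ratio among those with at least 10 counts. A single gene so named is not reported here. Foxp3 falls under the rule, while Spi1, Mitf, Pparg, Ly6g, Elane, Itgam, Tfrc, Blvrb, Steap3, Hpx and overlapping genes were named after their values were seen. The ratio script was tested on simulated data. Tools were Python 3.11.15 with numpy 2.4.6, pandas 2.3.3, scipy 1.17.1 and matplotlib 3.10.9, and R 4.3.3 with edgeR 4.0.16 and DESeq2 1.42.0 for scaling only. Alternatives were both scalings, the smaller table, TPM with a pseudocount of 1, 3 counts added, other thresholds and minimums, FPKM for detection, each library alone and coding transcripts only.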

Additional observations from a re-analysis of the deposited data

How the results depend on the processing

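The number of members at least 2-fold higher in library 2 was 27 of 35. Under the alternatives run, which include other thresholds and minimums, it ranged from 19 to 28. It was 28 at a threshold of 1.5-fold and, of 40 members, with no minimum count. It was 19 at a threshold of 4-fold and, of 25 members, with at least 100 counts. It was 27 with TMM scaling and 26 with DESeq2 size factors, which lost Cd14. The smaller table gave 23, of which 22 were shared, losing Adgre1, Aif1, Cd68, Timd4 and Trf and gaining Fcgr3. Counting coding transcripts only, an alternative chosen after seeing the data, gave 27, of which 26 were shared. The median log2 ratio of resident members (3.37) was 1.88 on TPM with a pseudocount of 1. For the monocyte or neutrophil members the median (-2.68) was -1.95 in the smaller table, -1.85 on TPM with a pseudocount of 1 and -1.21 with no minimum count, and it reversed to 0.44 with at least 100 counts, where the 2 members left were Cfp and Lyz2 and 1 was at least 2-fold lower. Members detected in both libraries (15 at 1 TPM) numbered 12 at the same threshold on FPKM, 26 at 0.1 TPM and 5 at 5 TPM, and 17 to 31 when 1 library was left out. Timd4 had a log2 ratio of -0.21 in the smaller table instead of 1.75. Within 2-fold, Lgmn changed sign with DESeq2 size factors (-0.01) and Axl on TPM (0.14). Where no construction of the alternative shows it, the cause was not tested. Depth limits members under 10 counts, which include Marco and Folr2. No paired analysis was possible because the libraries form 1 group.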
